A study of Mus musculus with 4 samples.

Results

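The genes described here encode SR proteins and the splicing factors, coactivators and kinases that work with them, 39 mouse genes of 22028 protein-coding genes in the annotation. Peaks were taken from the lists of 3 m6A reader proteins, and a peak belonged to a gene when its summit lay inside that gene in the GENCODE M21 annotation of GRCm38. By this rule the 39 genes held 285 of 19866 peaks. They made up 128 of the 7069 peaks in the IGF2BP2 list (1.81%), 56 of the 2834 in the YTHDF2 list (1.98%) and 1.01% of the 9963 in the YTHDC1 list. The rule that places peaks uses no measured value, but the 39 genes were chosen with earlier results of these data known. Of the 39 genes, 36 had a peak in any list.

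SR proteins bind exons through RNA recognition motifs and recruit the splicing machinery through domains rich in arginine and serine, called RS domains. CLK and SRPK kinases phosphorylate these domains, and many SR proteins gather in nuclear speckles. SR protein genes are known for limiting their own output through poison exons, which are alternative exons that carry a stop codon and send the transcript to nonsense-mediated decay (NMD). The readers recognise RNA that carries m6A, a methylated adenosine often found in the letters GGAC. IGF2BP2 is known as a cytoplasmic reader that stabilises mRNA, YTHDF2 as a cytoplasmic reader that promotes its decay, and YTHDC1 as a nuclear reader linked to splicing and export.

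The cells were lin- c-Kit+ cells from mouse bone marrow, which the labels name LIC. Only the title of the series says that they are leukaemia cells. They were grown with IL3, IL6 and SCF, and all 4 libraries share these conditions. There was 1 immunoprecipitate each for IGF2BP2, YTHDF2 and YTHDC1, made with Proteintech antibodies, and 1 input, whose own track was not used here. RNA was crosslinked with 3 exposures to ultraviolet light of 254 nm at 120 mJ/cm2, and the labels name no age, genotype or driver of the leukaemia. With 1 library per reader no difference has a replicate check, no test was possible, and every interval below covers counting error only. The 3 lists appear to share 1 background track, if the fold was made with a pseudocount of 1, which no source used here states. Under that assumption, where a pair of lists put a summit on the same base, the backgrounds implied by pileup and fold were equal, apart from a scale factor and within 1%, in 133 of 133 cases (IGF2BP2 and YTHDF2), 114 of 114 (IGF2BP2 and YTHDC1) and 84 of 84 (YTHDF2 and YTHDC1). Sequencing depth is unknown, so a higher fold or a longer list in 1 reader is not a measure of more binding. Of 7 progenitor marker genes, 2, 3 and 6 had a peak of IGF2BP2, YTHDF2 and YTHDC1, and the defining gene Kit had only 1, a YTHDC1 peak of fold 4.91, while Cd34 had 0. B-lineage and erythroid markers had 0 peaks in 8 genes. T and NK markers had a peak in 1 of 5 genes (Klrb1c), a YTHDC1 peak of fold 15.7, higher than that of Kit. Granulocyte and macrophage markers had peaks in 2, 0 and 3 of 6 genes. Of all protein-coding genes, 12.8%, 7.26% and 19.9% had a peak of IGF2BP2, YTHDF2 and YTHDC1. Peaks measure bound RNA and not expression, so these markers check the label only in part.

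The sequences that carry the results are 30 bases of the spliced transcript around the summit, from the GENCODE M21 transcripts. They are printed 5′ to 3′ on the strand of the gene (GRCm38), with any GGAC in capitals. The first 4 lie under tall coding peaks, those of IGF2BP2 in Srrm2 and Luc7l2 and those of YTHDC1 in Clk1 and Acin1.
Srrm2 exon 2: gaactgcggcacctggaggctgccctggtg
Luc7l2 exon 5: ggccaaagtggaacaactaggagctgaagg
Clk1 exon 4: attcacacgggaagagtcaccgaaggaaaa
Acin1 exon 19: ggagagagagagGGACagggagagagagcg
The next pair encodes runs of arginine and serine, under the IGF2BP2 summit in Rsrc2 and the YTHDC1 summit in Srsf2.
Rsrc2 exon 5: aagtctcgatccagaagcagagacaggaag
Srsf2 exon 2: ccaggtcgcgaagccgctcccgctacagcc
The last 4 lie outside the main transcript, under IGF2BP2 summits. The Srsf5 stretch crosses from exon 2 into a retained intron that begins with gtaagt, the Srsf7 and Tra2a stretches lie in exons of NMD transcripts, and the U2af2 stretch is the end of an intron that is part of an exon in an NMD transcript.
Srsf5-209: ggttttggttttgtggtaagtacttgaaac
Srsf7-203: ttgatcgtcgttagattgaagaaaacatct
Tra2a-202: acacgaagtatgaaaaatgaaaaactcaat
U2af2-203: cactttccccctccccccttccccagtcgt
Of these 10 stretches, only the one from Acin1 holds GGAC. How often the motif lies near a summit is counted over all coding summits further on.

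Most of these genes had peaks of all 3 readers, with no replicate check and no test. The genes were chosen with earlier results known, so the shares below do not describe an unselected set. A peak was found in 35 of 39 genes for IGF2BP2 (89.7%, exact binomial 95% interval 75.8 to 97.1%), against 12.8% of all protein-coding genes. YTHDF2 had a peak in 26 of the 39 (66.7%, 49.8 to 80.9%), against 7.26% of all protein-coding genes. YTHDC1 again had a peak in 35 of 39, against 19.9%. All 3 lists held a peak in 26 of 39 genes, against 5.10% of all protein-coding genes. Another 8 genes were in the IGF2BP2 and YTHDC1 lists (Srsf4, Srsf9, Tra2b, Srrm1, Luc7l, Sf3a1, Thrap3 and Prpf4b). Srpk1 was in the IGF2BP2 list alone and Srsf2 in the YTHDC1 list alone. Srsf6, Srsf10 and Clk4 had no peak in any list. The files hold no expression values, and the main transcripts of the 39 genes are longer than others (median 3373 nt, against 2563 nt). The part that level and length have in these shares was not tested.

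**Figure D1:**
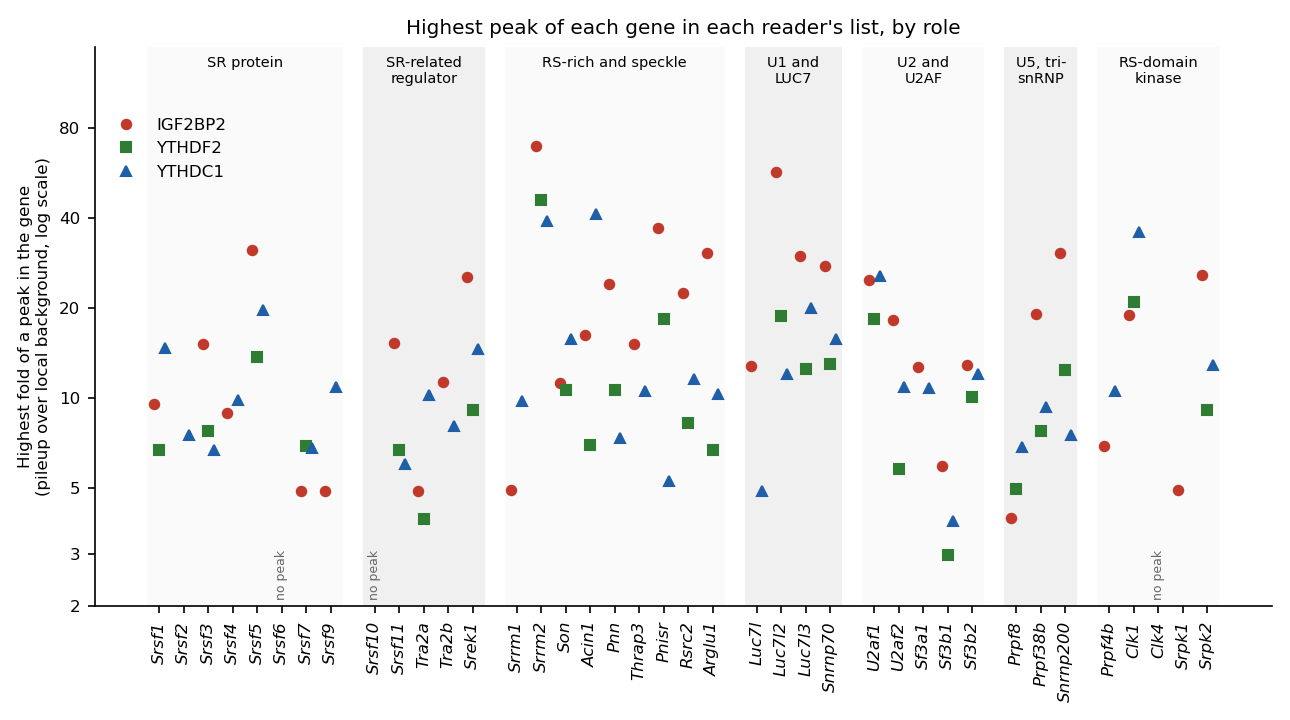
Highest fold (pileup over local background, log axis) of a peak in each of the 39 genes, grouped by role, with 1 point per reader that had a peak there. Srrm2 holds the highest IGF2BP2 and YTHDF2 points (69.9 and 46.1) and Acin1 the highest YTHDC1 point (41.3), and 3 genes have no peak.

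The median peak of these genes was higher than that of all protein-coding genes in each full list. The fold is the authors' ratio of the pileup (overlapping fragments at the summit) to the local background. In the 39 genes its median was 8.38 in the IGF2BP2 list, 7.04 in the YTHDF2 list and 8.08 in the YTHDC1 list, against 5.91, 5.47 and 6.03 in all protein-coding genes. The median pileup was 9, 8 and 10 fragments, against 5, 5 and 6. When every list was shortened to the same length, the YTHDC1 medians came to 11.7 in the 39 genes and 12.04 in all protein-coding genes, so that the order of the YTHDC1 medians turned. Only 10.9%, 12.5% and 6.93% of these peaks rested on a pileup of 3 or less, against 28.5%, 34.3% and 22.6%. Ranked by fold within its own list, a peak of these genes was in the top 10% in 27.3%, 19.6% and 15.8% of cases, against 9.73%, 8.87% and 10.0% in all protein-coding genes. Peaks were spread unevenly, and 8 genes with at least 10 peaks each held 128 of the 285. These were Srrm2 with 24, Acin1 with 21, Sf3b2 with 18, Luc7l2 with 17, Pnn with 15, Son with 12, Srek1 with 11 and Srsf5 with 10.

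Of the 8 SR proteins proper, 4 were in all 3 lists (Srsf1, Srsf3, Srsf5 and Srsf7) and only Srsf6 was in none. Srsf5, an SR protein that regulates constitutive and alternative splicing, had the tallest peaks of the group. Its IGF2BP2 peak at chr12:80946582-80946812 had a fold of 31.2 and a pileup of 34 (exact Poisson 95% interval 23.5 to 47.5), with the summit 1 nt beyond exon 2. The YTHDF2 and YTHDC1 peaks at the same place had folds of 13.4 and 19.8, with summits inside the coding part of exon 2. A further site over exon 3 had folds of 26.7, 13.7 and 9.45 (IGF2BP2, YTHDF2 and YTHDC1, the order of the 3 folds of a shared site from here on). YTHDC1 alone also had peaks upstream of exon 2, with folds of 9.78, 7.81 and 15.4. In Srsf5 the YTHDC1 peaks thus began at the gene start, and those of the other readers at exon 2.

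Srsf1, the founding member of the family, had its highest peak in the YTHDC1 list, at chr11:88048416-88048656 in exon 2 (fold 14.7, pileup 21), where IGF2BP2 had a fold of 7.32. Its only site in all 3 lists lay over exon 1 and the start of intron 1, with folds of 8.74, 6.70 and 12.8, where the IGF2BP2 peak joined YTHDF2 and YTHDC1 peaks that do not overlap each other. In Srsf3, the smallest SR protein, IGF2BP2 peaks lay in coding exons 2 and 3, with folds of 11.7 and 15.2, the second at chr17:29038402-29038625 with a pileup of 16. YTHDF2 peaks overlapped both, with folds of 7.75 and 6.80, while YTHDC1 had a single peak of fold 6.70 near the gene start. Srsf7, which carries a zinc knuckle beside its RNA recognition motif, had low peaks throughout. Its common site in exon 2 had folds of 4.88, 6.87 and 6.78, from pileups of 4, 6 and 6, and the YTHDF2 peak lay at chr17:80205856-80205967. Srsf4 had IGF2BP2 peaks of fold 8.91 in exons 4 and 6 and a YTHDC1 peak of fold 9.81 in exon 2, none of which overlapped another. The exon 6 summit also lies in an exon of Gm12992 on the other strand, and the lists give no strand. In Srsf9 the highest peak was a YTHDC1 peak of fold 10.9 over codon 2. In Srsf2, which binds both purine and pyrimidine rich exonic enhancers, there were only YTHDC1 peaks, of fold 7.51 in exon 1 and 6.01 in exon 2. The exon 1 summit lies in an exon of Mfsd11 as well, so its gene is uncertain.

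Among the 5 SR-related regulators, Srsf11, Tra2a and Srek1 were in all 3 lists, Tra2b was in 2 and Srsf10 in none. Srek1, a regulator with RS repeats, had 11 peaks, of which the highest was an IGF2BP2 peak at chr13:103752433-103752725 in exon 9 (fold 25.4, pileup 43). YTHDF2 and YTHDC1 had folds of 8.35 and 14.6 there. Exons 10, 11 and 12 of Srek1 each held an IGF2BP2 peak overlapped by a YTHDF2 peak and by no YTHDC1 peak. Srsf11 had its common site in exon 12, with folds of 15.3, 6.70 and 6.01, the first at chr3:158012104-158012510 with a pileup of 18. Tra2a and Tra2b, the vertebrate relatives of the fly sex determination factor transformer 2, had lower peaks. The site of Tra2a in all 3 lists, at exon 4, had folds of 3.91, 3.93 and 5.82, and these rest on pileups of 3, 3 and 5. The highest Tra2a peak was a YTHDC1 peak of fold 10.3 and pileup 16 in intron 1 (chr6:49263283-49263634), over an exon of a retained-intron transcript, and the highest Tra2b peak an IGF2BP2 peak of fold 11.3 in the 5' UTR.

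All 9 RS-rich coactivators and speckle proteins had IGF2BP2 and YTHDC1 peaks, and 7 also had YTHDF2 peaks. Srrm2, a core protein of nuclear speckles, held the highest IGF2BP2 and YTHDF2 peaks of all 39 genes. The IGF2BP2 peak at chr17:23806980-23807328 in exon 2 had a fold of 69.9, a pileup of 86 (68.8 to 106) and a −log10 q of 179. At the same site YTHDF2 had a peak at chr17:23806996-23807224 with a fold of 46.1 and a pileup of 54 (40.6 to 70.5). YTHDC1 had one at chr17:23806999-23807368 with a fold of 39.1 and a pileup of 51 (38.0 to 67.1). All 3 summits lay over codons 45 to 53. A second tall site, in the long exon 11, had folds of 37.4 (chr17:23815969-23816278, pileup 41), 20.1 (chr17:23816005-23816283, pileup 21) and 16.6. Between these sites IGF2BP2 had peaks at exons 3, 5, 6 and 7, with folds of 20.1, 24.1, 20.5 and 11.6. YTHDF2 had lower ones at exons 3, 5 and 6 (8.08, 7.31 and 5.47), and YTHDC1 had none at these exons. YTHDC1 instead had a peak of fold 20.6 that covered part of exon 12, with its summit in intron 12, 73 nt from an exon. The YTHDF2 peak there, of fold 7.11, lay wholly in the intron. Along Srrm2 the peaks of the 3 lists thus lay partly over different exons.

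Acin1, a component of complexes that sit on exon junctions, had 21 peaks and the highest YTHDC1 peak of the 39 genes. That peak, at chr14:54642772-54643011 in the last coding exon, had a fold of 41.3 and a pileup of 81 (64.3 to 100.7), and the A of a GGAC lay 1 base before the summit. IGF2BP2 had a fold of 8.70 there and YTHDF2 had no peak. The site of Acin1 in exon 17 was also led by YTHDC1, with folds of 7.01, 6.96 and 18.6, while in exon 6 IGF2BP2 led with 16.3, 5.79 and 10.4. Son, the other core speckle protein, had its highest peak in the YTHDC1 list, at chr16:91675368-91675550 in exon 9 (fold 15.8, pileup 33). Both of its sites in all 3 lists lay in the long exon 3, with folds of 6.86, 10.6 and 13.1 at the first and 11.3, 7.54 and 9.78 at the second. Pnisr, which binds pinin, had an IGF2BP2 peak of fold 37.0 at chr4:21861939-21862261 in exon 6 with a pileup of 45 (32.8 to 60.2), where YTHDF2 had 18.4 (chr4:21861960-21862256, pileup 21) and YTHDC1 5.27. Pinin itself (Pnn), an exon junction and speckle protein, had IGF2BP2 peaks of fold 24.1, 15.4, 14.3 and 18.5 over exons 1 to 4, the first at chr12:59066941-59067197 with a pileup of 26. Arglu1, a coactivator rich in arginine and glutamate, had folds of 30.6, 6.70 and 7.52 in exon 2 (IGF2BP2 at chr8:8683701-8684062, pileup 37), and a further IGF2BP2 peak of fold 25.7 at the border of intron 1. Rsrc2 had folds of 22.5, 8.22 and 11.6 at 1 site in exon 5, with the IGF2BP2 peak at chr5:123739473-123739766 (pileup 38). Thrap3, a factor in splicing and transcription, had a single site in exon 4, with a fold of 15.2 for IGF2BP2 and 10.5 for YTHDC1. Srrm1, the partner of Srrm2, had only 1 peak in each of these lists, with folds of 4.92 and 9.78.

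All 4 genes of the U1 group had IGF2BP2 and YTHDC1 peaks, and Luc7l alone had no YTHDF2 peak. Luc7l2, whose yeast relative is a U1 snRNP protein, had an IGF2BP2 peak at chr6:38591235-38591483 in exon 5 with a fold of 57.2, a pileup of 57 (43.2 to 73.9) and a −log10 q of 179. YTHDF2 had a fold of 18.8 there (chr6:38591287-38591455, pileup 18), and YTHDC1 one of 10.8. Exons 9 and 10 of Luc7l2 also held sites in all 3 lists, with IGF2BP2 folds of 17.7 and 13.7. Luc7l3 had its common site in exon 8, with folds of 29.9, 12.5 and 20.0 and pileups of 80, 32 and 75 (IGF2BP2 at chr11:94296852-94297147). Its relative Luc7l had an IGF2BP2 peak in the same exon as Luc7l2, exon 5, with a fold of 12.8. Snrnp70, the U1-70K protein, had 2 IGF2BP2 peaks in its last exon, with folds of 27.6 (chr7:45377027-45377467, pileup 38) and 19.8, where YTHDF2 had 12.9 and YTHDC1 15.7. These peaks were joined into 1 site, but their summits were spread over 591 bp. All 3 of Luc7l2, Luc7l3 and Snrnp70 had their highest fold in the IGF2BP2 list.

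In the U2 group, the U2af1 peaks of highest fold in each list had their summits in an intron. U2af1 is the small U2AF subunit and recognises the AG at the 3' end of introns. Around the IGF2BP2 peak at chr17:31648615-31648893 the folds were 24.9, 18.4 and 25.6, with pileups of 30, 21 and 33. The YTHDF2 peak lay at chr17:31648640-31648891 and the YTHDC1 peak at chr17:31648622-31648889. The 3 summits lay 31 to 35 nt from the nearest exon, in intron 4. That intron is only 79 nt long, and each of the 3 peaks spans it and reaches both flanking coding exons. YTHDC1 alone had a further peak over the last coding exon, at chr17:31647178-31647347, with a fold of 23.7 and a pileup of 50 (37.1 to 65.9). U2af2, the large subunit that binds the pyrimidine tract, had an IGF2BP2 peak of fold 18.2 and pileup 18 in exon 2 (chr7:5066419-5066622), with no partner. Sf3b2, a subunit of the U2 snRNP complex SF3b, had 18 peaks at 10 sites and 3 sites in all 3 lists, yet none was tall. Its highest was an IGF2BP2 peak of fold 12.9 and pileup 15 at exon 7 (chr19:5287860-5288018), where YTHDF2 had 10.1 and YTHDC1 7.52. Sf3b1, the SF3b subunit that holds the branch site, had 7 peaks with folds between 2.93 and 5.92, the highest an IGF2BP2 peak in intron 15 (chr1:55000103-55000259, pileup 5). Sf3a1, of the SF3a complex, had YTHDC1 peaks in exons 4, 6 and 7, with folds of 10.8, 4.91 and 7.73, and an IGF2BP2 peak of fold 12.7 in exon 7.

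The 3 genes of the U5 snRNP and tri-snRNP were in all 3 lists. Snrnp200, the helicase that unwinds U4 from U6, had folds of 30.6, 12.4 and 7.52 in exon 2 of its 45 exons (IGF2BP2 at chr2:127208986-127209186, pileup 37). Prpf38b had folds of 19.0, 7.75 and 9.33 in its last exon (IGF2BP2 at chr3:108904006-108904555, pileup 25). Prpf8, the large protein at the centre of the spliceosome, had no site in all 3 lists, and its highest peak was a YTHDC1 peak of fold 6.87 and pileup 7 in the 5' UTR (chr11:75486812-75486996).

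Among the 5 kinases, Clk1 and Srpk2 were in all 3 lists. Clk1, a nuclear kinase of SR proteins, had folds of 18.7, 20.97 and 36.1 in exon 4, with pileups of 20, 22 and 41 and summits within 12 bp. The YTHDC1 peak lay at chr1:58420123-58420292 and the YTHDF2 peak at chr1:58420115-58420285. Its exon 2 held an IGF2BP2 peak of fold 18.9 and a YTHDF2 peak of fold 8.35, with no YTHDC1 peak. Clk4, a close relative of Clk1 in sequence and function, had no peak. Srpk2, which acts on SR proteins before they enter the nucleus, had folds of 25.8, 9.12 and 12.9 in exon 9 (IGF2BP2 at chr5:23525402-23525749, pileup 28) and of 18.7, 5.93 and 6.86 in exon 10. Srpk1, of the same kind, had a single IGF2BP2 peak of fold 4.91 and pileup 4. Prpf4b, a kinase of splicing factors, had its highest peak in the YTHDC1 list (10.5, exon 2), where IGF2BP2 had 6.60.

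**Figure D2:**
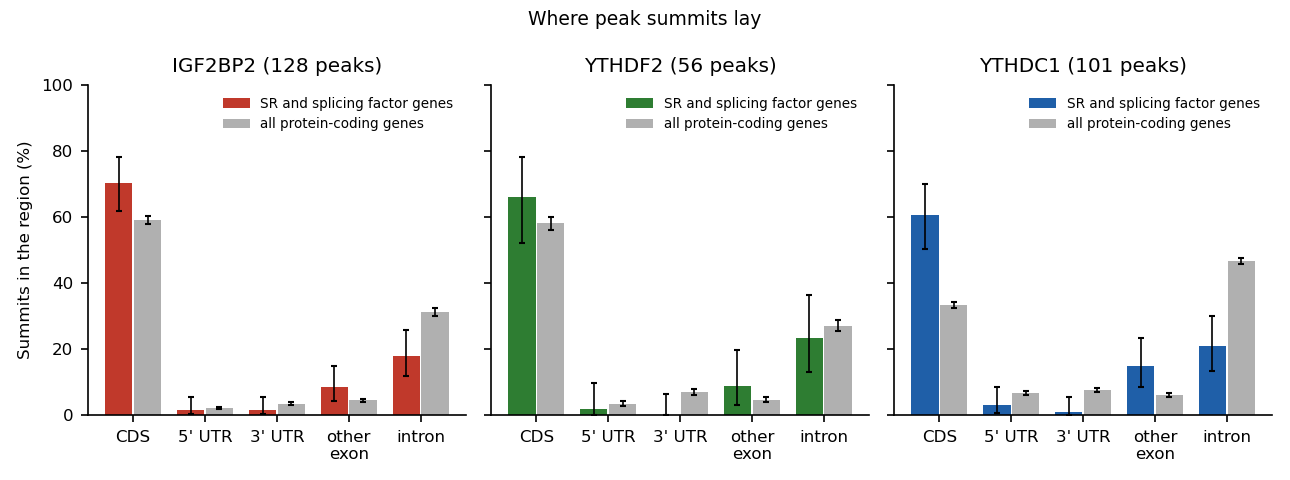
Share of summits (percent) in coding sequence, UTRs, exons outside the main transcript and introns, per reader, for the 39 genes (colour, left) and all protein-coding genes (grey, right). Bars start at 0 and error bars are exact binomial 95% intervals, and in the 39 genes 60.4% of YTHDC1 summits lay in CDS, against 33.2%.

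Most summits lay in coding sequence (CDS) of the main transcript, the transcript with the best APPRIS tag. The share was 70.3% in the IGF2BP2 list (61.6 to 78.1%), 66.1% in the YTHDF2 list (52.2 to 78.2%) and 60.4% in the YTHDC1 list (50.2 to 70.0%), against 58.9%, 58.0% and 33.2% in all protein-coding genes. Introns held 18.0%, 23.2% and 20.8%, against 31.2%, 27.1% and 46.6%. UTR summits were few. The 3' UTR held 2 IGF2BP2 summits, 0 of 56 YTHDF2 summits and 1 YTHDC1 summit, although it makes up 37.8% of the length of these main transcripts. Over all protein-coding genes it held 3.40%, 6.88% and 7.52% of summits, with 41.4% of the length. The 0 of 56 has an exact upper limit of 6.38%. The 3' UTR peaks lay in Srsf1 and Tra2a for IGF2BP2 and in Srrm2 for YTHDC1. Per length, the 3' UTR thus held the fewest summits among the exonic regions of the main transcript. Within CDS, 10.0%, 8.11% and 6.56% of summits were within 200 nt before the stop codon, against 6.62%, 9.58% and 10.5%.

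The higher coding share depends on which transcript decides. When a UTR of any annotated transcript was put before CDS, the CDS share of the 39 genes was 48.4%, 46.4% and 42.6%, against 51.7%, 51.7% and 29.9%, so that for IGF2BP2 and YTHDF2 the 39 genes then had the lower share. The 3' UTR share was then 24.2%, 19.6% and 19.8%, against 11.0%, 13.7% and 11.7%. Of the coding summits, 28.9% for IGF2BP2 (26 of 90, in 12 genes) were also 3' UTR of another transcript of the gene, against 12.02% of coding summits in all protein-coding genes. For YTHDF2 this was 24.3% (9 of 37), against 10.6%, and for YTHDC1 27.9% (17 of 61), against 10.6%. The transcripts with the 3' UTR were all annotated as NMD targets at 25 of these 26, 9 of 9 and 17 of 17 summits, and in all protein-coding genes at 94.6%, 91.9% and 91.9%. A 3' UTR of an NMD transcript begins at its early stop codon, and reads in a shared exon cannot be assigned to either transcript.

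Exons outside the main transcript held 11 IGF2BP2, 5 YTHDF2 and 15 YTHDC1 summits (8.59%, 8.93% and 14.9%, against 4.46%, 4.67% and 6.07% in all protein-coding genes). Of these, 3, 2 and 2 lay in an exon of an NMD transcript and 7, 3 and 10 in retained-intron transcripts without an NMD transcript. The NMD count for YTHDC1 includes the summit at the start of Srsf5, which lies in exons of protein-coding transcripts as well. The NMD shares were 27.3% for IGF2BP2, 2 of 5 for YTHDF2 and 13.3% for YTHDC1, against 14.5%, 14.8% and 10.0% of such summits in all protein-coding genes, and the retained-intron shares 63.6%, 60.0% and 66.7%, against 55.7%, 50.8% and 44.7%. With so few summits, no difference can be read from these shares. The annotation has 32 internal exons of NMD transcripts in 21 of the 39 genes that lie wholly inside an intron of the main transcript and overlap no exon of a protein-coding transcript, the arrangement of a poison exon. IGF2BP2 had a summit in 2 of the 32, YTHDF2 in 1 and YTHDC1 in 0. Over all protein-coding genes, 0.125% of 1606 such exons held an IGF2BP2 summit, 0.0623% a YTHDF2 summit and 0.0623% a YTHDC1 summit. The 2 exons with an IGF2BP2 summit among all genes were those of Srsf7 and Tra2a, and the 1 with a YTHDF2 summit was that of Tra2a.

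The exon of Srsf7-203 (chr17:80204622-80205081, 460 nt, minus strand) held an IGF2BP2 peak at chr17:80204654-80204818, with a fold of 4.89, a pileup of 4 (1.09 to 10.2) and no partner. It is also part of retained-intron transcripts. The exon of Tra2a-202 (chr6:49252803-49253108, 306 nt, minus strand) held an IGF2BP2 peak of fold 4.89 and pileup 4 (chr6:49252864-49252967) and a YTHDF2 peak of fold 3.93 and pileup 3 (chr6:49252839-49252942), with summits 2 bp apart. These pileups are below the median of 5 over all protein-coding genes in both lists. Snrnp70 had an IGF2BP2 peak of fold 6.43 and pileup 7 at chr7:45382191-45382293, in an internal exon of retained-intron transcripts inside intron 7. In U2af2, IGF2BP2 and YTHDF2 peaks of fold 5.72 and 5.78 lay at the end of intron 3, where the exon of U2af2-203 begins early, over the pyrimidine tract printed above. The other exons of this kind, among them those of Srsf3, Srsf4, Srsf9 and Tra2b, had no summit. The exon of Srrm2-203 (chr17:23811817-23812077) was overlapped by a YTHDC1 peak of fold 7.05 and pileup 42 (chr17:23811982-23812180). That peak had its summit beyond the exon, in an exon of the retained-intron transcript Srrm2-207. With depth unknown, the lack of a summit does not show that binding is absent.

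**Figure D3:**
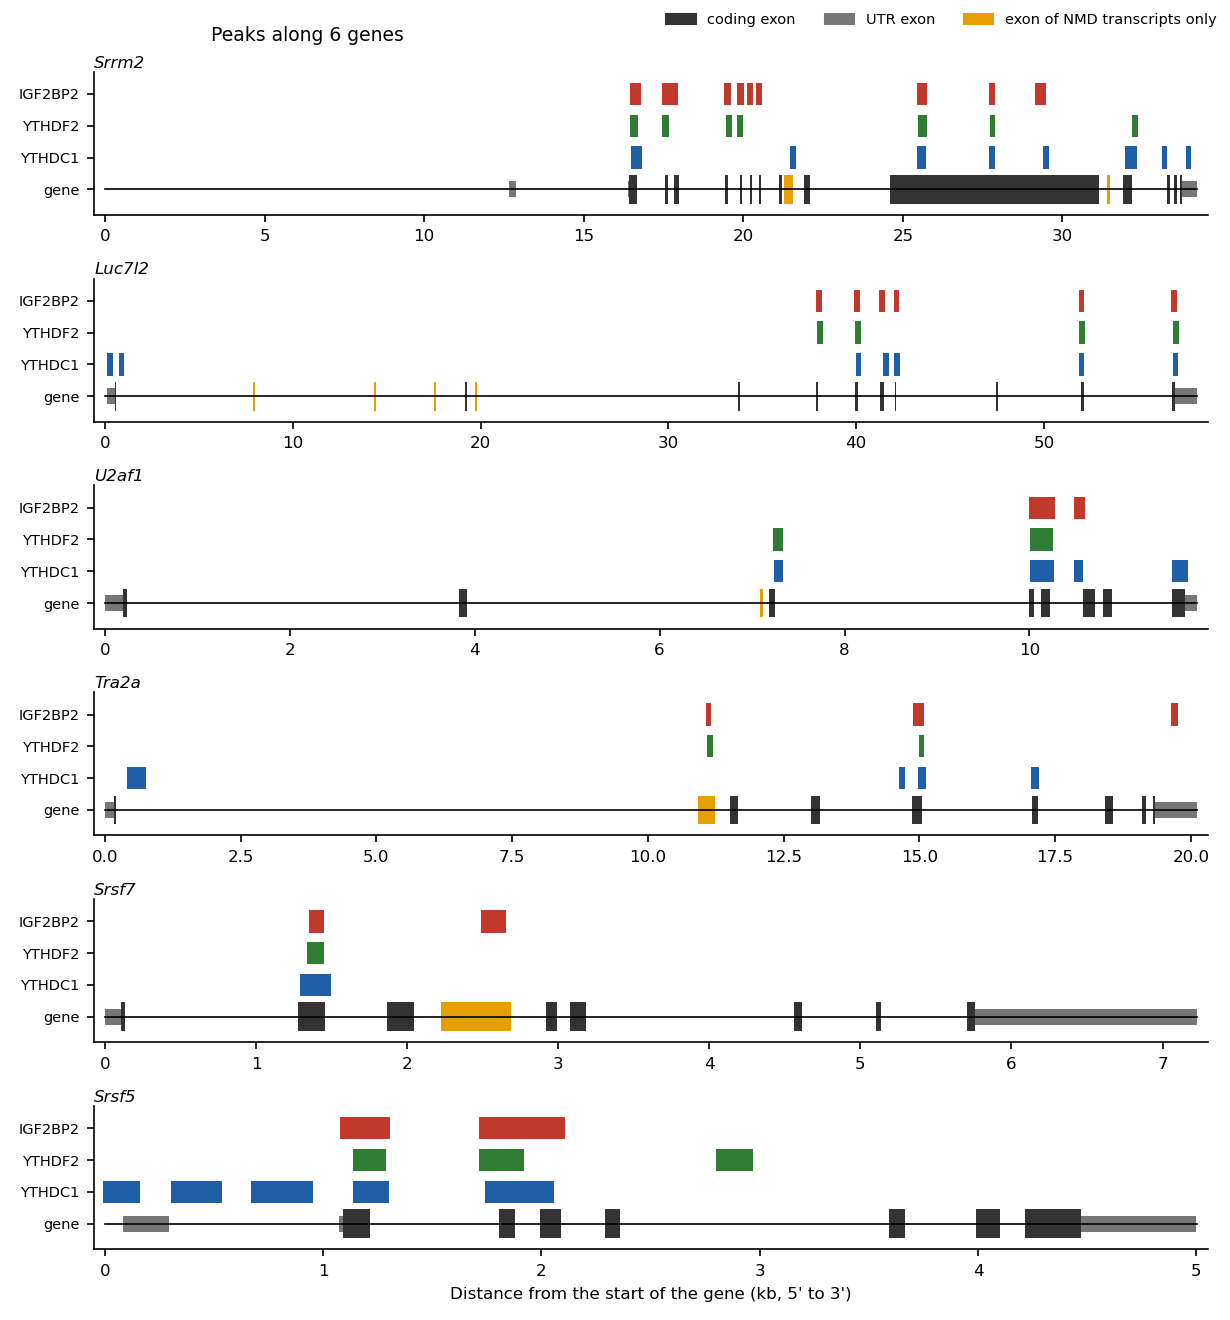
Peaks (coloured boxes, 1 row per reader) along 6 of the 39 genes, drawn to scale as distance in kb from the gene start, with coding exons in black, UTR exons in grey and exons of NMD transcripts that overlap no exon of a protein-coding transcript in orange. IGF2BP2 and YTHDF2 peaks mostly follow coding exons in Srrm2 and Luc7l2, while YTHDC1 peaks there also lie in UTRs and in introns away from main exons. A YTHDF2 peak of Srrm2 also lies wholly in an intron. YTHDC1 boxes begin at the start of Srsf5. The orange exons of Tra2a and Srsf7 carry the summits of the peaks of fold 3.93 to 4.89, and a YTHDC1 box reaches an orange exon of Srrm2.

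Taller peaks outside the main transcript lay at exon borders and in retained introns. The tallest were the Srsf5 peak of fold 31.2 described above, a YTHDC1 peak of fold 22.6 in Acin1 (chr14:54679148-54679278, intron 3) and an IGF2BP2 peak of fold 20.1 in Srrm2 (chr17:23807974-23808473). The Acin1 site also held an IGF2BP2 peak of fold 8.84 with its summit at the same base. Snrnp70 had YTHDC1 peaks of pileup 54 and 20 in introns 4 and 7, with folds of only 9.27 and 7.06. Of all 31 summits in exons outside the main transcript, 22 lay in exons that extend a main exon or retain an intron, 4 in cassette exons and the others in terminal exons or beyond the ends of the main transcript.

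Intron summits of these genes lay close to exons. The median distance to the nearest exon of the main transcript was 27 nt in the IGF2BP2 and YTHDF2 lists and 73 nt in the YTHDC1 list, against 346.5 nt, 856 nt and 2408.5 nt in all protein-coding genes. Within 200 nt of an exon lay 21 of 23, 13 of 13 and 15 of 21 summits (91.3%, 100% and 71.4%, against 48.7%, 43.7% and 20.6%). The peak itself reached into a main exon at 21 of 23, 12 of 13 and 11 of 21 of them (91.3%, 92.3% and 52.4%, against 47.8%, 41.5% and 14.8%). For IGF2BP2 and YTHDF2 most of these peaks thus crossed an exon border with a summit just outside the exon. In the first intron lay 2 of 23 IGF2BP2, 0 of 13 YTHDF2 and 8 of 21 YTHDC1 summits (8.70%, 0% and 38.1%, against 18.1%, 22.3% and 33.1%), so that the YTHDC1 share was near that of all protein-coding genes. The first introns with YTHDC1 summits belonged to Srsf1, Srsf5, Tra2b, Luc7l3, Rsrc2, Arglu1 and Srpk2, of which Srsf5 had 2. The most distant of these intron summits, in Srpk2, lay 19069 nt from an exon, with a fold of 2.90 and a pileup of 2.

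Peaks of different readers often overlapped in these genes. Sharing here means an overlap of at least 1 bp, and because the lists appear to share 1 background track it is given as counts and shares only. Of the IGF2BP2 peaks, 57.0% overlapped a peak of another list, against 46.3% in all protein-coding genes. Of the YTHDF2 peaks 98.2% did (55 of 56), against 80.0%, and of the YTHDC1 peaks 55.4%, against 31.4%. Both other lists were overlapped by 26.6%, 58.9% and 32.7% of peaks (IGF2BP2, YTHDF2 and YTHDC1), against 18.6%, 45.4% and 13.5%. A partner was missing at 43.0%, 1.79% and 44.6% of peaks, against 53.7%, 20.0% and 68.6%. The 285 peaks joined into 174 sites. Of these, 34 sites in 22 genes were in all 3 lists, 19 had IGF2BP2 with YTHDC1, 18 IGF2BP2 with YTHDF2 and 2 YTHDF2 with YTHDC1. In the full lists nearly every YTHDF2 peak thus lay at a site of another reader, but the YTHDF2 list is the shortest. With lists of equal length the YTHDF2 share was 82.1%, and no share of all protein-coding genes is given at that length. IGF2BP2 alone had 55 sites, YTHDC1 alone 45 and YTHDF2 alone 1. The single site of YTHDF2 alone was the intron 5 peak of Srsf5 (fold 8.21). Of the 26 genes in all 3 lists, Srsf3, U2af2, Sf3b1 and Prpf8 had no site that all 3 shared.

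**Figure D4:**
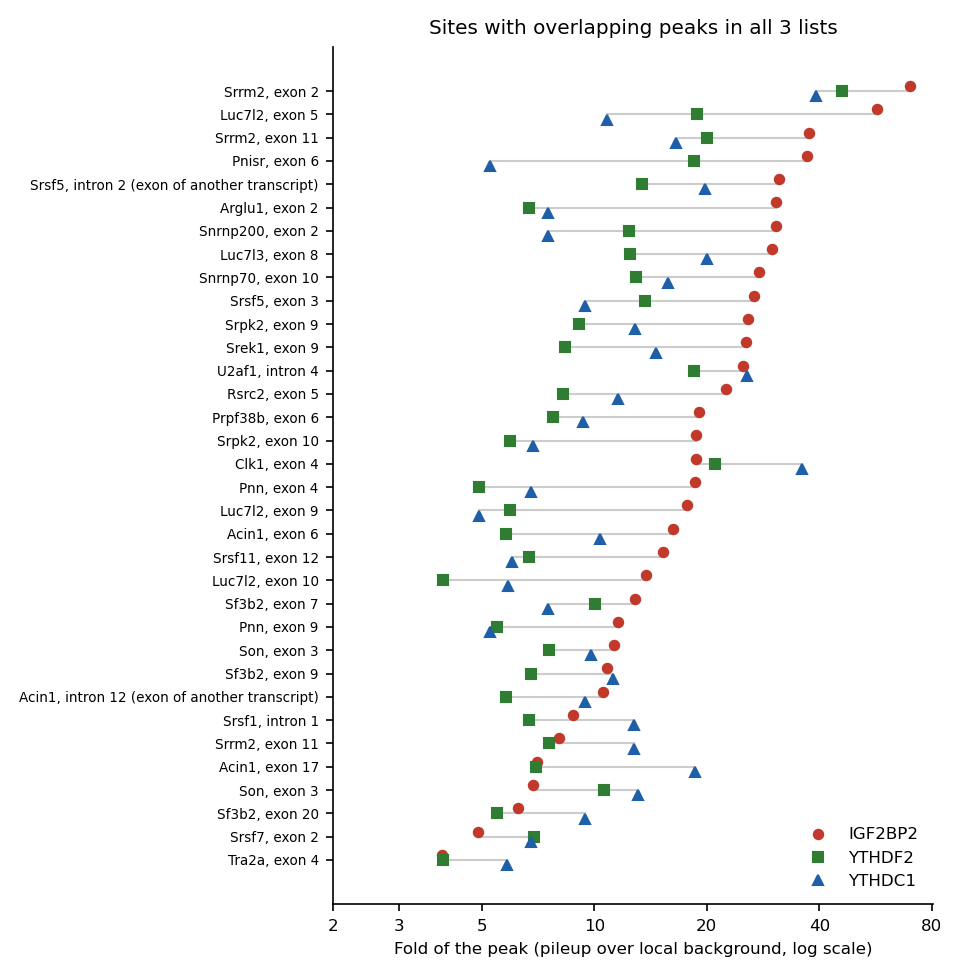
Fold of the peak of each reader (log axis) at the 34 sites with overlapping peaks in all 3 lists, ordered by the IGF2BP2 fold. IGF2BP2 is the rightmost point at 24 sites, YTHDC1 at 9, such as Clk1 exon 4, and YTHDF2 at 1, Srsf7 exon 2.

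With 1 region given per site, the 34 common sites were coding in 30 cases. Of these 30, the sites at Tra2a exon 4, Luc7l2 exon 9, Pnn exon 4 and Srpk2 exon 10 also held a summit in an intron. Median folds of the 34 sites were 18.6, 7.64 and 10.1, and the summits of all readers lay within 50 bp at 25 sites. IGF2BP2 had the highest fold at 24 sites. By percentile of fold within its own list, the IGF2BP2 peak was the highest at 24 sites, the YTHDF2 peak at 3 and the YTHDC1 peak at 7, but these percentiles depend on the unequal lengths of the lists. YTHDC1 had the highest fold at 9 sites, in Srsf1, Tra2a, Srrm2 (exon 11), U2af1, Sf3b2 (exons 9 and 20), Son, Acin1 (exon 17) and Clk1. YTHDF2 was highest only at Srsf7 exon 2, by 6.87 against 6.78 for YTHDC1. Since depth is unknown, these orders describe the lists and do not compare binding.

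Some coding summits of these genes lay over sequence that encodes RS-rich stretches. Among the 51 residues around a coding summit, arginine and serine made up a median of 18.6%, 21.6% and 17.6% (IGF2BP2, YTHDF2 and YTHDC1), against 13.7% in all protein-coding genes for each list. The whole proteins under the summits of the 39 genes had medians of 25.7%, 27.1% and 22.2%. The stretch at the summit was above its own protein at 39 of 90, 16 of 37 and 27 of 61 summits (43.3%, 43.2% and 44.3%), against 46.0%, 44.8% and 47.7% in all protein-coding genes. These shares are near those of all protein-coding genes. Stretches of at least 40% arginine and serine lay at 23, 8 and 14 summits (25.6%, 21.6% and 23.0%), against 1.53%, 1.39% and 1.55% in all protein-coding genes. Of all 51-residue windows in the 39 proteins, 18.6% reach 40%, and of those in all protein-coding genes 0.308%. The highest stretch was 84.3%, at the Srsf2 exon 2 summit of YTHDC1. It was followed at 72.5% by the Rsrc2 exon 5 and Son exon 3 sites, which all 3 readers shared, and by the Luc7l3 exon 9 summit, which IGF2BP2 alone had. At the other end, the tallest Luc7l2 site encodes 7.84% around the IGF2BP2 summit and the tallest Srrm2 site 23.5%. The Srpk2 exon 10 summits of IGF2BP2 and YTHDC1 encode no arginine or serine at all within 51 residues.

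**Figure D5:**
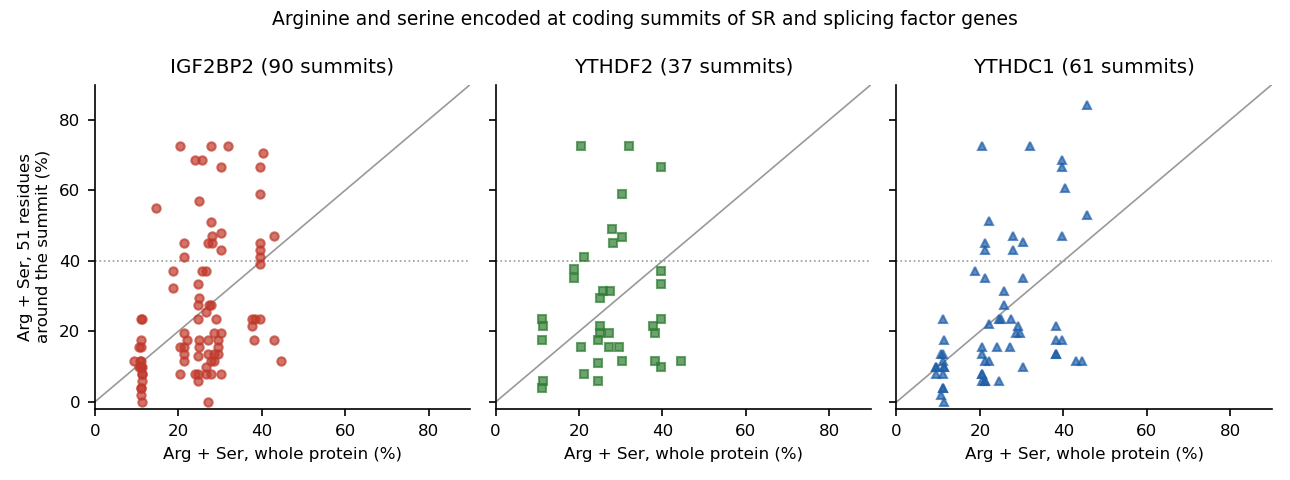
Arginine plus serine (percent) in the 51 residues around each coding summit, against the share over the whole protein, per reader. The solid line marks equal shares and the dotted line 40%, and 23 of 90 IGF2BP2, 8 of 37 YTHDF2 and 14 of 61 YTHDC1 summits lie at or above the dotted line.

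GGAC near coding summits was about as frequent in these genes as in all protein-coding genes, whose values lie inside each interval. The letters GGAC were searched on the transcript strand from 50 nt before to 50 nt after the summit. They were found at 37.8% of IGF2BP2 coding summits (27.8 to 48.6%), 40.5% of YTHDF2 summits (24.8 to 57.9%) and 39.3% of YTHDC1 summits (27.1 to 52.7%), against 43.6%, 42.2% and 43.0% in all protein-coding genes. Of all windows of this length centred in coding sequence, 31.6% hold GGAC in the 39 genes and 37.8% in all protein-coding genes. The tallest IGF2BP2 site, Srrm2 exon 2, had the A of the nearest GGAC 40 nt after the summit, and in the tallest site of Luc7l2 it lay 367 nt before. A match is a description and not a methylated site, since methylation was not measured here. Summits in coding exons longer than 400 nt made up 26.7%, 27.0% and 29.5%, against 17.2%, 23.3% and 34.2%, with Srrm2 exon 11 and Son exon 3 the longest such exons.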

How the data were processed

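Cells were crosslinked with ultraviolet light, and RNA was sonicated and immunoprecipitated for 1 reader at a time. Libraries were stranded, amplified by PCR and selected by size, per the labels' protocols. Reads were processed with HISAT2, Trim Galore and bcl2fastq 2.17 (build GRCm38), tools named per the submitters' processing notes without their order, and the peak caller is not given in the sources used here. Peaks were called per immunoprecipitate, with 1 library behind each list. Each peak comes with the authors' own fold, a ratio of its pileup to the local background, and with their score and −log10 values of p and q, as deposited. Its length in bp and the summit's pileup signal are also given, per the file headers. They were used only to describe, rank and filter peaks within a list, and the lists give no strand and no depth. The smallest −log10 q was 2.01, 2.05 and 2.02.

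Summits were placed in every protein-coding gene of the GENCODE M21 annotation that held them, and within a gene an exon took precedence over an intron. A summit inside several protein-coding genes was counted for each of them. Of the 285 peaks, 18 had a summit that also lay in another gene, 4 of them in its exon. The region was read in the main transcript, chosen by APPRIS tag and then by the longest CDS. GGAC was sought in the spliced main transcript and not, as planned, on the genome, because no genome sequence was used here. Amino acid shares were translated from the same transcripts. Shares have exact binomial and pileups exact Poisson 95% intervals. These cover counting error only, since PCR copies without molecular identifiers are not independent molecules. With 1 library per reader, no test was made. The reading of regions was tested on positions drawn at random in the main transcripts of the member genes, and the counting steps were not tested. Python 3.11.15, pandas 2.3.3, numpy 2.4.6, scipy 1.17.1, Biopython 1.88 and matplotlib 3.10.9 were used.

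The 39 genes and all other gene lists were chosen with earlier results of these data known. Every gene of the 39 is named. Full peak values are given for the 5 highest folds in each list, the highest peak of genes in all 3 lists and every peak in a cassette exon. The 3 other splicing genes with the highest fold in any list are named, and 4 Sm and core snRNP genes were named after their values were seen. Further peaks of the 39 genes are given by fold and were chosen after their values were seen. The counts of coding summits that are 3' UTR in another transcript, and the distances of intron summits in all genes, were added after the first values were seen. The alternatives tried were peaks with a fold of 5 or more, peaks with a −log10 q of 5 or more, lists of equal length (2834 peaks), the highest peak of each gene, any base of the peak in place of the summit, the transcript with the longest CDS, all transcripts with UTR before CDS, summits within 50 bp as shared, a motif window of 51 nt and 21 residues.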

Additional observations from a re-analysis of the deposited data

How the results depend on the processing

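No paired analysis was possible because each reader has 1 library and no test was made. Depth is unknown and limits what a missing peak means. Of 91 recomputed values, 67 stayed within the interval or the 1.5-fold limit of the reported one and 24 moved, and in each case below the cause was not tested unless the setting itself sets it. None moved at a −log10 q of at least 5, with the longest CDS, with any base of the peak or with 21 residues. With lists of equal length, which keeps only the strongest peaks of the IGF2BP2 and YTHDC1 lists, YTHDC1 had a peak in 23 of the 39 genes and all 3 lists in 17. The background was then 6.01%, 7.26% and 7.93% of protein-coding genes for IGF2BP2, YTHDF2 and YTHDC1. A background for all 3 lists together is not given at this length, so the 17 has no share to be set against. Median folds were then 14.3 for IGF2BP2 and 11.7 for YTHDC1 (9.86 and 12.04 in all protein-coding genes), median pileups 16 and 18.5, and CDS shares 78.9% and 73.9%. The share of peaks with a partner was 67.6% for IGF2BP2 and 82.1% for YTHDF2. With only the highest peak of each gene, median folds were 15.3, 9.12 and 10.5 and median pileups 18, 10 and 14. At a fold of at least 5 the IGF2BP2 median fold was 10.6. With all transcripts and UTR before CDS, CDS shares were 48.4%, 46.4% and 42.6%. With summits within 50 bp, 89.3% of YTHDF2 peaks had a partner. In windows of 51 nt, GGAC was found at 21.1%, 16.2% and 24.6% of coding summits.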

Other observations

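Another 103 splicing genes lie outside the 39. IGF2BP2 had a peak in 55 of them (53.4%), YTHDF2 in 33 (32.04%) and YTHDC1 in 58 (56.3%), against 12.8%, 7.26% and 19.9% of all protein-coding genes. All 3 lists held a peak in 28 of the 103, against 5.10% of all protein-coding genes. The small Sm and core snRNP proteins stood at the low end of these groups, with peaks in 0, 0 and 4 of 12 genes. All 4 (Snrpa1, Snrpb, Snrpd1 and Snrpe, named after their values were seen) were in the YTHDC1 list. Their YTHDC1 share of 33.3% is still above the 19.9% of all protein-coding genes. Other U1 and U2 factors had peaks in 10, 8 and 12 of 19 genes and other tri-snRNP factors in 10, 7 and 11 of 15. Genes of the Prp19 complex and the catalytic steps had peaks in 14, 7 and 11 of 22, other RS-rich and kinase genes in 16, 8 and 17 of 27, and the exon junction complex in 5, 3 and 3 of 8. The 3 genes with the highest fold in any list had it in the IGF2BP2 list. Rbm25, an RS-related splicing regulator, had top folds of 43.3, 16.2 and 18.8 (IGF2BP2, YTHDF2 and YTHDC1). Htatsf1, a factor of the U2 snRNP, followed with 40.2, 20.1 and 26.1, and Sart1, a tri-snRNP protein, with 32.2, 14.0 and 29.6. No difference between these groups has a replicate check, and gene length and expression were not matched.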
